A study of Mus musculus with 18 samples.

Results

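Bone-marrow-derived macrophages that lacked the oxygen sensor PHD3 were compared with wild-type macrophages after culture at low oxygen. The comparison holds 6 of the 18 samples of the study, chosen by their sample titles: 3 samples of genotype PHD3-/- and 3 wild-type samples, all labelled oxygen 1 with control feeding. Marrow was flushed from the femurs of male C57BL/6J mice aged 8 weeks and grown for 7 days in macrophage colony stimulating factor. The labels state that the animals were not treated, and the design text names 3 mice for each group. They give the oxygen concentrations, 1 here and 20 in the other groups, without a unit, and do not say how long the cells were kept there. The sources used here do not say how the PHD3-/- allele was made, which exons it lacks or whether a cell-type-specific driver was used. The other 12 samples, 3 per genotype at oxygen 20 with control feeding and 3 per genotype at oxygen 20 after starvation, served to follow genes first seen at oxygen 1. Replicate 1 of the knockout at oxygen 1 was hybridised on 2 arrays, which were averaged, so 7 arrays entered the comparison.

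PHD3, encoded by Egln3, belongs to a small family of enzymes that use molecular oxygen to hydroxylate prolines in the alpha chains of the hypoxia-inducible factors (HIF). Hydroxylated HIF alpha is bound by the von Hippel-Lindau protein and destroyed. When oxygen runs short the subunits accumulate, pair with ARNT and switch on genes for glycolysis, oxygen delivery, pH control and mitochondrial turnover. Egln3 is itself one of the genes that HIF switches on. The title of the series concerns how macrophages survive stress, so the comparison asks whether macrophages without PHD3 express different genes once oxygen is low.

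At oxygen 1 the transcriptomes of the 2 genotypes were close to each other. Levels are given here as log2 signal relative to the 75th percentile of each array, so a level of 0 is that percentile and a difference of 1 is 2-fold. None of 20812 genes passed the adjusted threshold of 0.05 (0% called, limma with Benjamini-Hochberg adjustment), and the smallest adjusted p was 0.343. At an unadjusted p under 0.05 there were 352 genes (1.69%), 198 higher (0.951%) and 154 lower (0.74%) in the knockout. The 3 knockout samples lay entirely apart from the 3 wild-type samples for 915 genes (4.4%), 571 with the knockout higher (2.74%) and 344 with it lower (1.65%). Counts of this size also arise where no gene differs, so neither the 352 nor the 915 genes are by themselves a list of changed genes. Samples of different genotype correlated at r = 0.990 to 0.994 across genes, and samples of the same genotype at 0.987 to 0.994. Genes are not independent replicates, and these correlations only describe how alike the arrays were.

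The count of 0 came with narrow bounds for most genes. For 17515 genes all 6 samples were well above background, and for 16875 of these (96.3%) the whole 95% interval of the genotype difference lay within 2-fold either way. Their median standard error was 0.15, and the interval reached a median of 0.32 on the log2 scale, or 1.25-fold, to each side. Over all genes tested the share within 2-fold was 88.4%. Group means differed by over 2-fold for 178 genes, and 164 of these were not well above background in all 6 samples. Of the 178, 95 were higher (0.456% of the genes tested) and 83 lower (0.399%). The largest positive difference of all, 4.43 for Trim12a, rested on wild-type replicate 1 reading -7.07 beside 3.43 in replicate 2, with replicate 3 left out as an outlying spot. The knockout samples read 3.06, 2.85 and 1.92 for Trim12a.

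**Figure D1:**
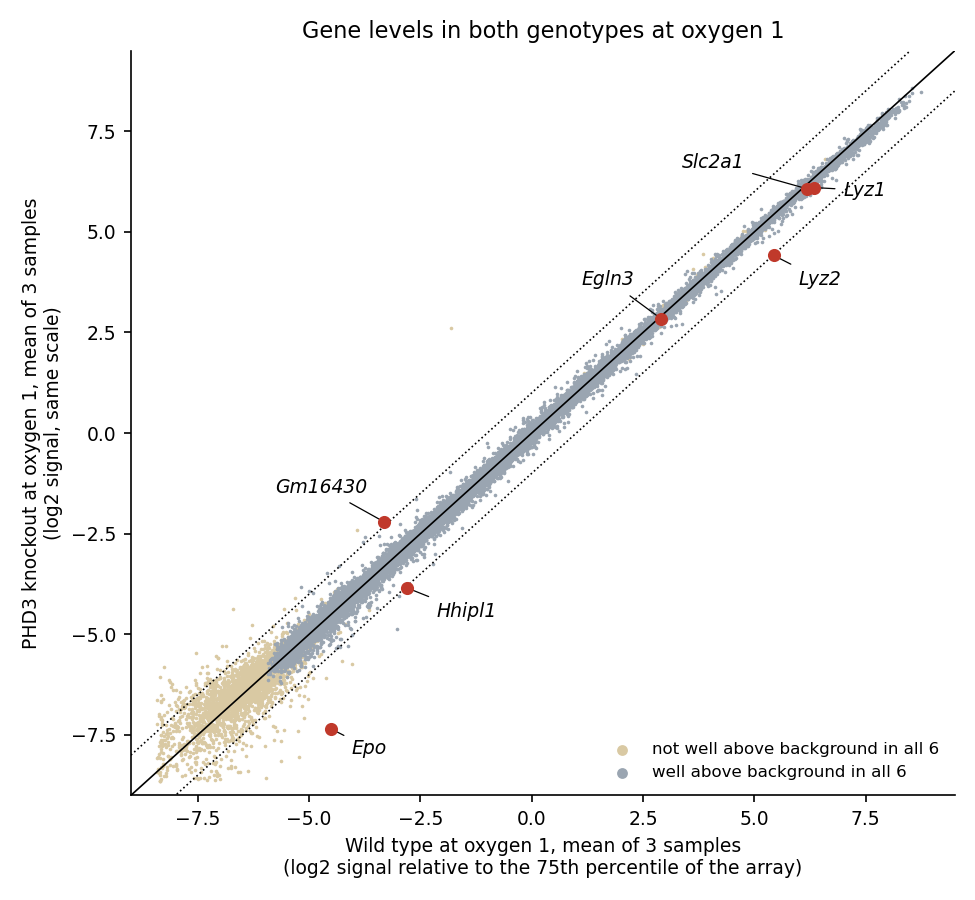
Mean log2 level of each of 20812 genes in wild-type (x axis) and knockout (y axis) macrophages at oxygen 1, 3 samples each and scaled to the array's 75th percentile. The solid line marks equal levels and the dotted lines 2-fold; named genes are in red. Most genes lie on the line, Lyz2 and Hhipl1 lie on the lower 2-fold line, and Epo lies below it among dim genes.

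The targeted gene was read first. Egln3 was measured by 2 probes. The brighter probe gave 2.84, 2.98 and 2.71 in the knockout samples and 3.00, 2.87 and 2.83 in wild type. The groups overlapped, and the difference was -0.05 (SE 0.16, 95% interval -0.39 to 0.28). The second probe gave 2.28, 2.26 and 2.22 in the knockout against 2.34, 2.44 and 2.22 in wild type, a difference of -0.07 (interval -0.42 to 0.27). The sources used here do not place these probes inside or outside the deletion. The signal therefore checks no genotype, and the word knockout follows the labels. At oxygen 1 the Egln3 transcript stood far above its level at oxygen 20 in both genotypes, by 6.36 in wild type and 6.79 in the knockout on the log2 scale. With control feeding at oxygen 20 the brighter probe read -3.88, -3.76 and -4.20 in the knockout against -3.10, -3.51 and -3.77. The second probe read -4.43, -4.20 and -4.65 against -3.73, -4.13 and -4.33. Both were lower on average in the knockout there, with groups that overlapped. When starved the brighter probe read -2.33, -2.29 and -2.61 against -2.19, -2.35 and -2.36. The 250 bases before the Egln3 start carry 1 copy of the core that HIF binds, searched as ACGTG or GCGTG on both strands, at position -229 from the start. It is shown with Epo, described next, whose upstream window has 2 copies, at -240 and -204. The sequences are from RefSeq (GRCm38.p6), chr12:54203875-54204124 for Egln3 and chr5:137485817-137486066 for Epo, both on the minus strand and written 5′ to 3′ with the core in capitals.
Egln3: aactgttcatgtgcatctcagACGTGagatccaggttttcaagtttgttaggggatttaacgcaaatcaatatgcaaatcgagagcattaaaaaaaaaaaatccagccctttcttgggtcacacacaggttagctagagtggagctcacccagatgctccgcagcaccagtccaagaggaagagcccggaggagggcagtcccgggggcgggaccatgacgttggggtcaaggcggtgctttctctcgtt
Epo: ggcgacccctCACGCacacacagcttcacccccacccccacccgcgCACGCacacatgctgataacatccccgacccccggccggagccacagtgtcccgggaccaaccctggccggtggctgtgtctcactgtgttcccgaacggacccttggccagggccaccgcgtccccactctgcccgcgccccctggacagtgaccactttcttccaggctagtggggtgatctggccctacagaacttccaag
Such a core occurs in the same window of 38.6% of the 32851 promoters in the table, so a match describes the letters only. Among hypoxia response genes, 37 of the 44 with a promoter in the table (84.1%) had at least 1 core, against 41.5% of all 27025 genes in the table. The list was chosen as genes of this response, and the other share covers all genes in the table, not only those measured. Enrichment was not tested.

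Epo showed the largest negative difference of all genes tested. It encodes erythropoietin, the hormone that drives red cell production and the classical HIF target of kidney and liver. Wild-type samples at oxygen 1 read -4.48, -5.03 and -4.02, all well above background. Knockout samples read -7.33, -8.56 and -6.15, and only the last was well above background. Every knockout sample was lower than every wild-type sample. The difference was -2.84 (SE 0.48, interval -3.87 to -1.81, unadjusted p = 3.29e-05, adjusted p = 0.343 with limma), so Epo missed the adjusted threshold. Epo also met the filter on dim probes, at least 3 of 18 samples, only through wild type at oxygen 1. That is the group where it is high, so its p and its rank are not independent of the filter. Within the 3 slides that each held 1 sample of both genotypes, knockout minus wild type was -2.34, -3.53 and -2.13. Its size depended on how dim spots were treated and on single samples. Background correction with normexp gave -0.45 (unadjusted p = 0.241, limma). Leaving out knockout replicate 3 gave -3.44 and an adjusted p of 0.0264 (limma), but no remaining knockout reading was then well above background. In none of the 12 samples at oxygen 20, starved or not, was Epo well above background, so no genotype difference is given there. In wild type the level at oxygen 1 was at least 3.85-fold that at oxygen 20, taking for each dim array the higher of its own reading and the lowest signal well above background. The test of whether the genotype difference changed between oxygen 20 and oxygen 1 gave an unadjusted p of 0.000827 and an adjusted p of 1.00 (limma), from readings that were all dim at oxygen 20. That test also reused the oxygen 1 values for which Epo was named. The receptor gene Epor differed by -0.06 (interval -0.35 to 0.24).

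Lyz2 had the smallest p-value at oxygen 1. It encodes lysozyme M, a secreted enzyme that cleaves bacterial cell walls and a marker of the myeloid lineage. The knockout samples read 4.71, 4.08 and 4.46 and the wild-type samples 5.55, 5.29 and 5.46, with no overlap. The difference was -1.02 (SE 0.16, interval -1.37 to -0.67), or 2.03-fold, with an unadjusted p of 1.75e-05 and an adjusted p of 0.343 (limma). On the 3 shared slides it was -0.69, -1.21 and -1.0. In samples pooled from a culture, fewer cells of a type and less RNA per cell cannot be told apart. The same offset stood in the other conditions, at -1.0 with control feeding at oxygen 20 and -1.06 when starved, and the 3 knockout samples were below the 3 wild-type samples each time. Averaged over those 2 conditions it was -1.03 (interval -1.28 to -0.78, adjusted p = 0.00565, limma), past the threshold. Of all 20812 genes, 3 (0.0144%) were called in that average, which was added after values were seen. In both of those conditions replicates 1 and 2 lay on slides 1 and 3 in the knockout but on slides 2 and 5 in wild type. Replicate 3 of both genotypes lay on slide 4, and a second array of knockout replicate 1 with control feeding lay on slide 5. Slide and genotype therefore overlap in part in that average, and the part of the slides was not tested. Whether samples with one number in different conditions came from one mouse is not given, so the conditions may not be independent mice. From oxygen 20 to oxygen 1 Lyz2 fell in both genotypes, with a log2 change of -0.98 in wild type (adjusted p = 0.00023) and -1.0 in the knockout (adjusted p = 0.000183, limma). The genotype difference at oxygen 1 departed from that at oxygen 20 by -0.02 (interval -0.51 to 0.48).

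Lyz1, the neighbouring paralog that encodes lysozyme P, did not share the 2-fold offset. Its knockout samples read 6.28, 6.16 and 5.86 and its wild-type samples 6.34, 6.38 and 6.31. The groups lay apart, but the difference was only -0.24 (SE 0.18, interval -0.62 to 0.14, unadjusted p = 0.192, adjusted p = 1.00, limma). It was 0.02 with control feeding at oxygen 20 and -0.10 when starved. The pair is shown because the 2 genes carry closely similar upstream sequence while only Lyz2 was offset about 2-fold. Of the 120 bases before each start, 111 (92.5%) are identical in position, and the 9 that differ are in capitals. The sequences are from RefSeq (GRCm38.p6), chr10:117282273-117282392 for Lyz2 and chr10:117292869-117292988 for Lyz1, both on the minus strand, written 5′ to 3′ and ending at the base before the start.
Lyz2: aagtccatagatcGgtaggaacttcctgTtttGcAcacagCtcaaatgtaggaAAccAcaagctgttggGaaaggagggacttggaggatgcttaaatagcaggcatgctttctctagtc
Lyz1: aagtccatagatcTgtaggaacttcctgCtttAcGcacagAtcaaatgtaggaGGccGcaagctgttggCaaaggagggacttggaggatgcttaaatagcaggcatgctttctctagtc
Neither window holds the ACGTG or GCGTG core. A single probe read each gene, and probe sequences were not used here, so how far a probe reads the other paralog was not tested.

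Hhipl1, a relative of the hedgehog-binding protein Hhip, followed Lyz2. Knockout samples read -3.87, -4.24 and -3.44 and wild-type samples -2.56, -3.13 and -2.69, all well above background. Each knockout sample was lower than each wild-type sample, by -1.06 on average (SE 0.21, interval -1.51 to -0.61, unadjusted p = 0.000154, adjusted p = 1.00, limma), and by -1.12, -1.11 and -0.75 within slides. With normexp background correction the difference was -0.61. It was -1.13 with control feeding at oxygen 20 and -1.10 when starved, and the average of these, -1.12, passed the threshold (adjusted p = 0.0147, limma). Its second probe did not pass the filter on dim probes. Hhipl1 lies on chromosome 12, as do Egln3 and other named genes such as Pqlc3, Fos and Hif1a. It is not among the 40 nearest measured neighbours of Egln3 described further on. The transcript NM_146065, which has no symbol in the table used and was chosen after its values were seen, read 1.52, 1.13 and 1.74 in the knockout and 2.31, 2.23 and 2.51 in wild type. Its difference was -0.88 at oxygen 1, -0.90 with control feeding and -0.97 when starved, with the groups apart in each condition. A second, dimmer probe of NM_146065 differed by only -0.16 (interval -0.48 to 0.17). The third transcript called in the average, XM_001476382, was higher in the knockout there (adjusted p = 0.00694, limma), but none of the 6 wild-type samples behind that average was well above background, so no size is given. At oxygen 1 it was well above background in 3 knockout samples and 1 wild-type sample, with the groups apart and a difference of 0.38.

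**Figure D2:**
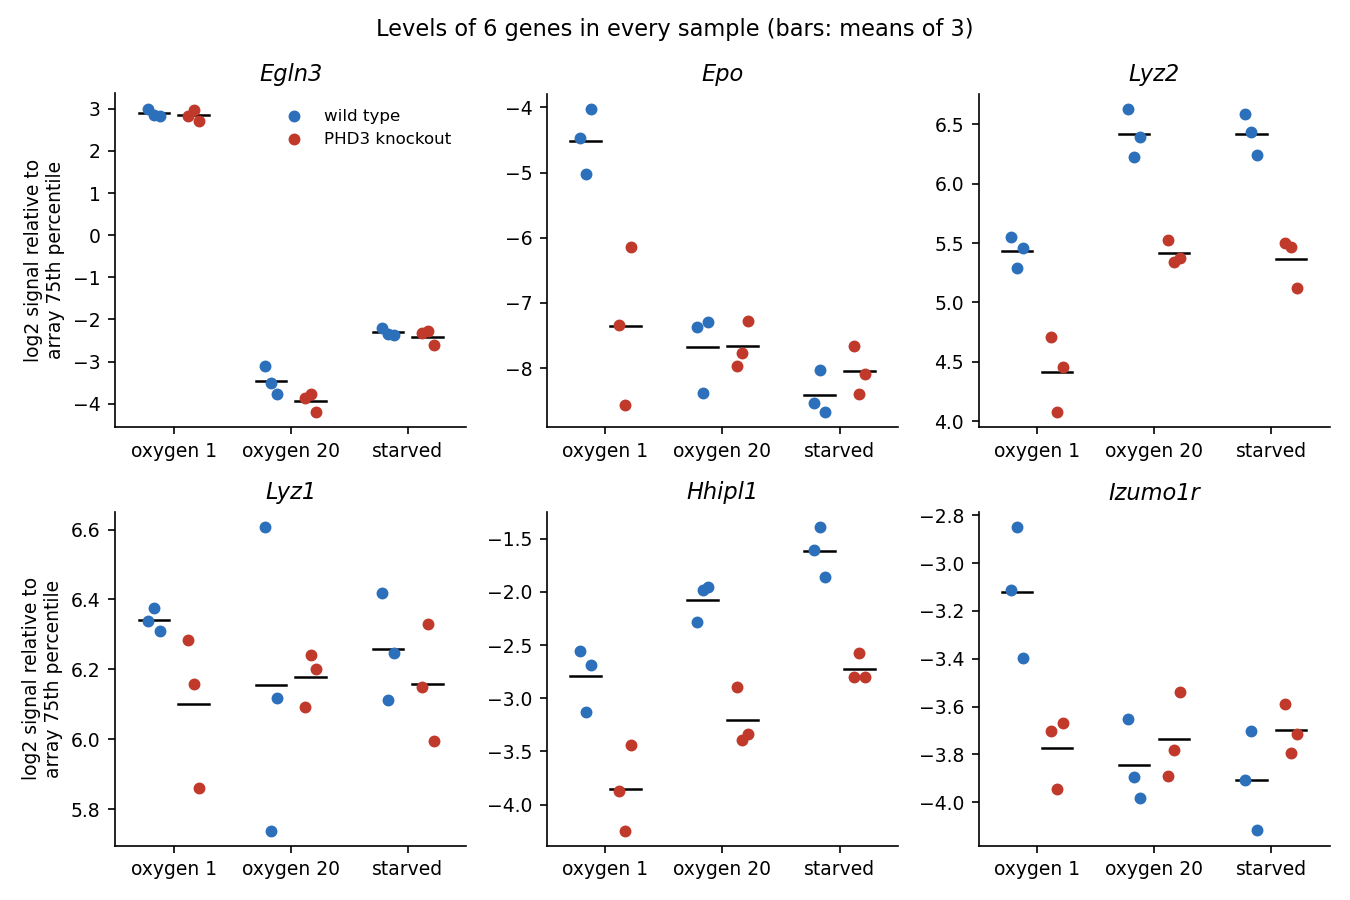
Log2 level of 6 genes in each of 18 samples, scaled to the array's 75th percentile; wild type in blue, knockout in red, 3 samples per group, bars at the means. Epo is apart at oxygen 1 and at background elsewhere, Lyz2 and Hhipl1 are lower in the knockout in all 3 conditions, and Egln3 at oxygen 1 overlaps between genotypes.

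With no gene past the threshold, further genes were named by size among those with an unadjusted p under 0.01, groups that lay apart and all samples of at least 1 group well above background. This held for 29 genes, of which 14 had no symbol and 2 only a clone-type name, and these were not named by size. Of the other 13, 10 were lower and 3 higher in the knockout, and all 29 missed the adjusted threshold. The 2 clone-named genes were both higher, 3830403N18Rik by 1.35, described further on, and 2810021J22Rik by 0.83. Beside Epo, Lyz2 and Hhipl1, the lower genes included Izumo1r, which encodes folate receptor 4, with knockout levels of -3.70, -3.94 and -3.67 against -3.11, -2.85 and -3.40. Its difference was -0.65 (interval -0.98 to -0.33). In wild type Izumo1r was 0.72 higher at oxygen 1 than at oxygen 20, and in the knockout -0.03, and the genotype difference at oxygen 20 was 0.11. The change of its genotype difference between the oxygen levels was -0.76 (interval -1.22 to -0.30, unadjusted p = 0.00335, adjusted p = 1.00, limma). Izumo1r was named for its difference at oxygen 1, which enters this change, so the test is not independent of that choice. With normexp the difference of Izumo1r at oxygen 1 was -0.17. Pqlc3, a membrane protein of the PQ-loop family, read 1.60, 1.61 and 1.57 in the knockout against 2.17, 2.21 and 1.88, a difference of -0.49.

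Further separated differences lay in genes of diverse function. Clic5, a chloride intracellular channel protein, differed by -0.53 (-0.28 with normexp), Xrn1, the main cytoplasmic 5′ to 3′ exoribonuclease, by -0.41, and Arl11, an Arf-like GTPase, by -0.38. Usb1, which trims the U6 small nuclear RNA, differed by -0.35 and Plekhj1 by -0.26. The 3 higher genes of the 13 were Rnd1 at 0.41, Prag1 at 0.29 and Tdg, the thymine DNA glycosylase of base excision repair, at 0.27. Rnd1 read 0.70, 0.89 and 0.88 in the knockout against 0.46, 0.63 and 0.14, and its lowest knockout sample lay close above the highest wild-type sample. In the other conditions 6 of the 10 lower genes and 1 of the 3 higher genes kept their sign in both. The 6 include Xrn1 at -0.00044 and Usb1 at -0.0041 with control feeding, both near 0. Epo counts among those that did not, from readings at background. The same share over all genes was not counted. Of the 13, only Lyz2 and Hhipl1 also had an unadjusted p under 0.05 with that sign in both. The clone-named 3830403N18Rik did so too, at 1.13 with control feeding and 1.07 when starved.

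**Figure D3:**
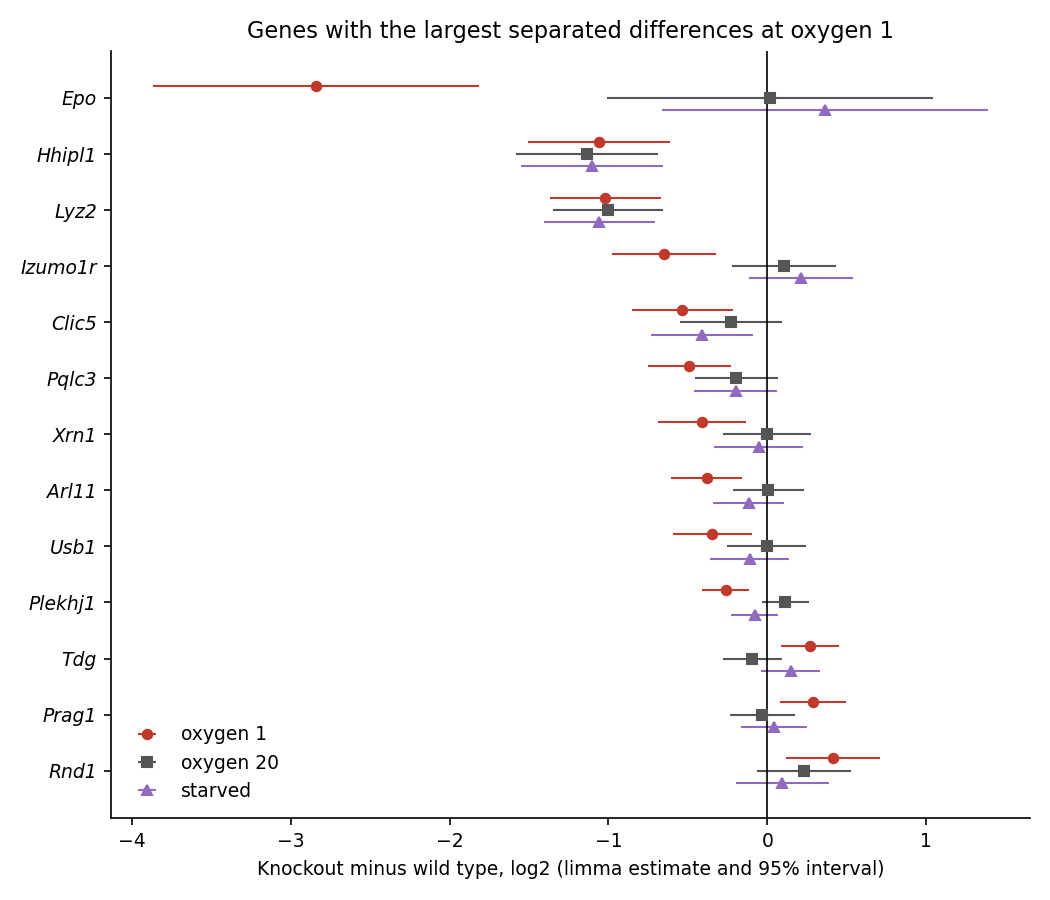
Knockout minus wild type on the log2 scale, with limma's 95% interval, for the 13 genes named by size at oxygen 1 (red circles), followed at oxygen 20 with control feeding (grey squares) and when starved (purple triangles). The genes were chosen for their red values; Lyz2 and Hhipl1 keep their offset in all 3 conditions while Izumo1r lies near 0 in the other 2, and Epo was not well above background there.

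Genes that passed 2-fold with all 6 samples well above background were 14, 7 higher and 7 lower. Of the 7 higher, 6 had a symbol, and all 6 lie on the X chromosome: Slx, Xlr, Gm2012, Gm5168, Gm16430 and 3830403N18Rik. Slx and Xlr belong to a family of many near-identical copies that has a Y-linked counterpart in Sly. Copies so alike are uncertain on an array, since 1 probe may read several of them. Gm16430 read -2.45, -1.71 and -2.44 in the knockout and -2.97, -3.99 and -2.99 in wild type, a difference of 1.12 (interval 0.25 to 1.98, unadjusted p = 0.0151, limma). For 3830403N18Rik the knockout read -4.14, -3.48 and -3.89 against -4.80, -5.91 and -4.84, a difference of 1.35. Slx overlapped between groups, at -3.34, -2.25 and -2.55 against -3.17, -4.67 and -3.55. None was past the adjusted threshold.

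The samples differed among themselves in a way that recurred. The 6 X-linked genes were followed with the Y-linked Sly and Gm20736, after their values were seen. Wild-type replicate 2 was the lowest of the 6 samples for 7 of these 8 genes at oxygen 1, for 8 with control feeding at oxygen 20 and for 7 when starved. These genes are not independent counts: in wild type at oxygen 1 Gm2012 read -3.22, -4.62 and -3.41, close to Slx. The 6 X-linked genes were chosen for a knockout level over 2-fold higher at oxygen 1, which favours a low wild-type sample. The same share over all genes was not counted. Differences over the 8 genes ran from 0.82 to 1.35 at oxygen 1, from 0.96 to 1.35 with control feeding and from 0.38 to 1.07 when starved. Against wild-type replicates 1 and 3 alone they ran from 0.54 to 0.99 at oxygen 1. With normexp the difference of 3830403N18Rik was 0.59. Broadly expressed Y-linked genes did not share the offset, with Ddx3y at 0.14 (interval -0.10 to 0.37) and Uty at -0.10 (interval -0.52 to 0.32). The part of single mice in these levels was not tested.

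**Figure D4:**
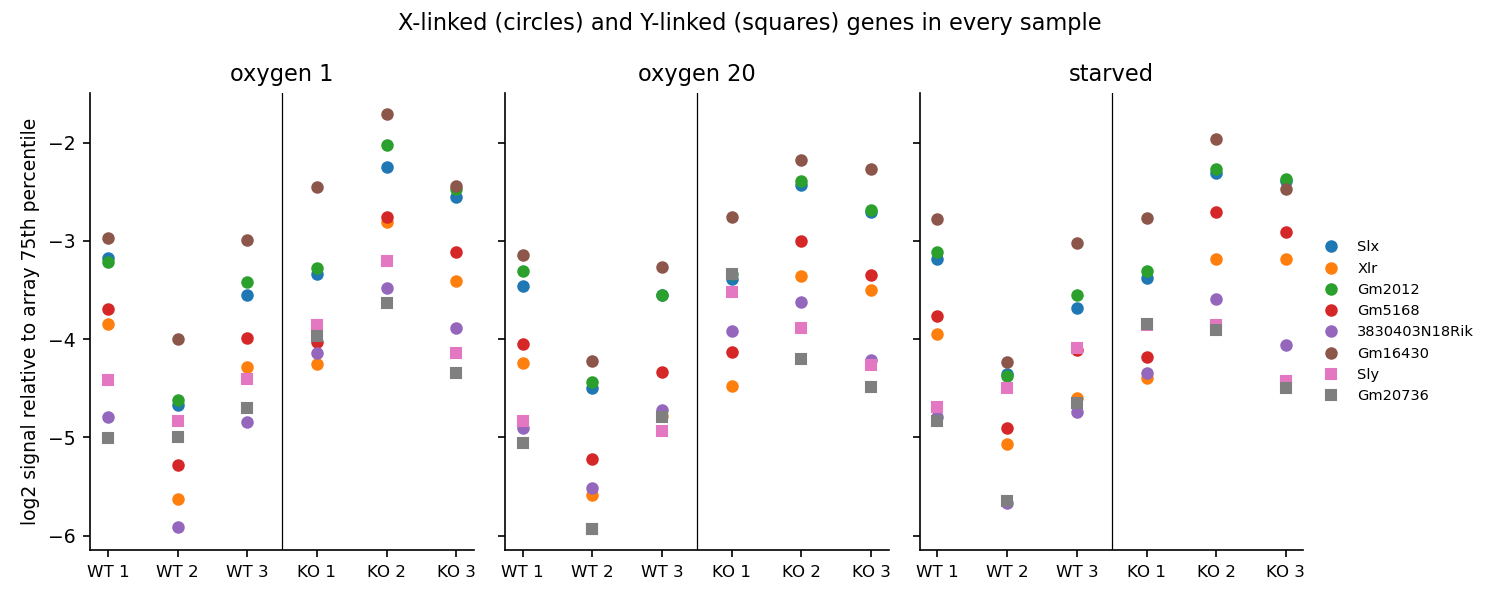
Log2 level scaled to the array's 75th percentile (y axis) of 6 X-linked (circles) and 2 Y-linked (squares) genes in each wild-type (WT) and knockout (KO) sample (x axis), by condition. WT 2 reads lowest for most of the 8 genes in each panel.

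Of the 7 lower genes past 2-fold, 4 had a symbol: Osbp2, Glyctk, Hhipl1 and Lyz2. Osbp2, an oxysterol-binding protein, read -5.01, -5.59 and -5.29 in the knockout and -1.94, -4.88 and -5.55 in wild type, so its mean difference of -1.17 came from wild-type replicate 1. Glyctk, which encodes glycerate kinase, read -5.42, -5.27 and -5.29 against -2.67, -5.20 and -5.03, again with wild-type replicate 1 standing alone. The transcript BC019489, without a symbol, read -4.13, -5.75 and -4.71 against -3.13, -2.95 and -2.99, a difference of -1.83 with the groups apart. Among dim genes, Sfrp4, a secreted Wnt antagonist, read -7.39, -8.14 and -8.92 in the knockout, never well above background. In wild type it read -5.02, -4.29 and -7.57, the first 2 well above background. Taking the dim readings at the lowest signal well above background where that was higher, the wild-type level was at least 1.77-fold that of the knockout. The fit without wild-type replicate 3 called Sfrp4 (adjusted p = 0.00861, limma), against knockout readings that were all dim. Sfrp4 was well above background in wild-type samples only, so it met the filter only through the genotype where it is high. Its p is not independent of that filter.

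The enzymes and subunits of the HIF pathway differed little at the transcript level. None of 13 measured members of this list passed the test, 5 were higher and 8 lower in the knockout, and their median was -0.05, against 0.01 over all genes. Of all genes, 10781 were higher and 10031 lower. Egln1, the main HIF prolyl hydroxylase PHD2, read -0.74, -1.45 and -1.15 in the knockout and -1.06, -0.82 and -1.03 in wild type, a difference of -0.15 (interval -0.67 to 0.38). Egln2, which encodes PHD1, differed by -0.07 (interval -0.33 to 0.18) and Hif1an, the asparaginyl hydroxylase FIH, by -0.08 (interval -0.37 to 0.22). Hif1a read 0.19, 0.81 and 1.09 in the knockout against 0.41, 0.49 and 0.66, so its difference of 0.18 (interval -0.35 to 0.70) was within the spread of the knockout samples. Epas1, which encodes HIF-2 alpha, differed by -0.06 (interval -0.26 to 0.14), Arnt by -0.09 (interval -0.54 to 0.37), Vhl by 0.14 (interval -0.08 to 0.36) and Hif3a by 0.12 (interval -0.23 to 0.48). The ubiquitin ligases Siah1a and Siah2, which target PHD proteins, differed by -0.02 and 0.00. P4htm, a transmembrane prolyl hydroxylase, had the largest difference of the list at 0.33 (interval -0.15 to 0.82) from dim readings. The arrays measure transcripts, and HIF alpha is controlled as a protein.

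The listed genes of the hypoxia response read close to each other in the genotypes. Epo, at -2.84, was not on this list and is not in its counts. Of 58 measured genes 0 were called, 28 were higher and 30 lower, the median difference was 0.00 and the range -0.43 to 0.29. All 58 point estimates lay within 1.5-fold, and for 46 the whole 95% interval did. The median change of these genes from oxygen 20 to oxygen 1 was 2.12 in wild type and 2.17 in the knockout. Slc2a1, the glucose transporter GLUT1, read 6.00, 6.27 and 5.94 in the knockout against 6.28, 6.26 and 6.00. Vegfa, the angiogenic growth factor, read 2.77, 2.90 and 2.90 against 2.77, 2.97 and 2.68, a difference of 0.05 (interval -0.20 to 0.30). Ankrd37 differed by 0.11 (interval -0.15 to 0.36), Adm, which encodes the vasodilator adrenomedullin, by 0.06 (interval -0.37 to 0.49), and Car9, a membrane carbonic anhydrase, by -0.03 (interval -0.31 to 0.25). Arg1, which turns arginine into ornithine and urea, read 1.59, 1.28 and 1.28 against 1.41, 1.46 and 1.63, with a difference of -0.12 and a wide interval from -1.13 to 0.89.

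The members with the smallest p in the hypoxia list pointed both ways. Zfp395 read -2.60, -2.63 and -2.63 in the knockout and -2.17, -2.18 and -2.23 in wild type, clearly apart, with a difference of -0.43 (interval -0.80 to -0.06, unadjusted p = 0.0263, limma), which was -0.24 with normexp. Zfp395 was the only member with an unadjusted p under 0.05, where 1.69% of all genes had one. Kdm3a, a histone demethylase that itself needs oxygen, differed by 0.17 and Angptl4, a secreted lipase inhibitor, by 0.22, while the nuclear receptor gene Rora differed by -0.28. Glycolysis and lactate export genes leaned low, with 21 of 26 lower, 0 called and a median of -0.07, which was -0.0040 without knockout replicate 3. Eno1 differed by -0.17, Pgk1 by -0.06, Ldha by -0.05 and Pkm by -0.07, and under quantile normalization Pgk1, Ldha and Pkm were 0.06, 0.07 and 0.02. Hk1, the constitutive hexokinase, differed by 0.20 and Hk3 by -0.25. Mitochondrial remodelling genes leaned high, with 12 of 15 higher, 0 called and a median of 0.09, and within slides the median was 0.21, 0.12 and -0.07. Bnip3, a mitophagy receptor, read 7.13, 6.82 and 6.62 against 6.67, 6.54 and 7.01, with overlapping groups, and Bnip3l differed by -0.05 (interval -0.23 to 0.14).

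Genes of cell death and survival, the subject named in the title, were not called either. Over the pro- and anti-apoptotic lists, 74 genes were measured, and for 72 the 95% interval lay within 2-fold. Pro-apoptotic genes counted 16 higher and 25 lower with a median of -0.01, and anti-apoptotic genes 16 higher and 17 lower with a median of -0.01. Bax, a pore-forming protein of the mitochondrial outer membrane, differed by -0.12 (interval -0.34 to 0.11). Bcl2l11, which encodes the BH3-only protein BIM, differed by -0.03 (interval -0.42 to 0.35) and Bbc3, which encodes PUMA, by -0.06 (interval -0.29 to 0.17). On the protective side, Mcl1 differed by -0.08 (interval -0.27 to 0.11), Bcl2l1, which encodes BCL-XL, by 0.02 (interval -0.22 to 0.25) and Bcl2 by -0.18 (interval -0.47 to 0.11). Dapk2, a death-associated kinase, was 4.64 higher at oxygen 1 than at oxygen 20 in wild type and 5.08 higher in the knockout, and the genotypes differed by 0.15 (interval -0.44 to 0.74). The largest member difference, 0.74 for Perp, came from a gene well above background in only 1 of the 6 samples. Igf1r, the survival-promoting growth factor receptor, differed by 0.22, Dapk3 by -0.25 and Hspb1, a small heat shock protein, by -0.35, each with overlapping groups. Targets of p53 had 0 of 24 called, with 9 higher and 15 lower and a median of -0.06.

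**Figure D5:**
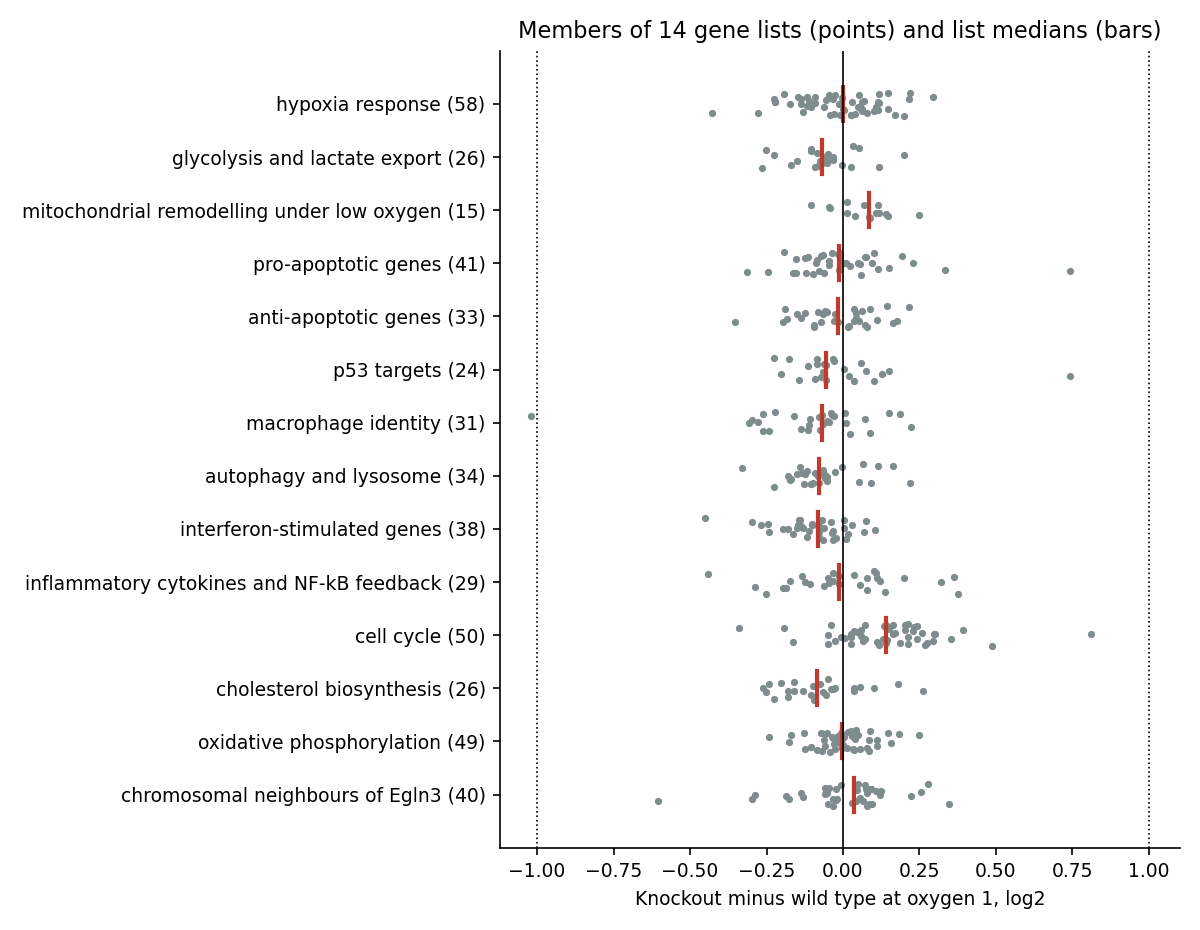
Knockout minus wild type at oxygen 1 on the log2 scale (x axis) for each measured member (points) of 14 gene lists, with the number measured in brackets and the median as a red bar; dotted lines mark 2-fold. Medians lie between -0.09 and 0.14, and the point at the 2-fold line in the macrophage list is Lyz2. Epo is on none of these lists.

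Lists of macrophage functions gave medians near 0, and several leaned one way without a called gene. The cell cycle list had the largest median of those drawn, 0.14, with 42 of 50 genes higher and 0 called. In it 2 genes lay apart on the higher side and 1 on the lower. Over all genes 2.74% and 1.65% did, so these counts are near the general share. Its medians within slides were -0.19, 0.09 and 0.43, so slides did not share a sign. Without knockout replicate 3 the median was -0.00082. In the other conditions the median was 0.12 with control feeding and 0.12 when starved. Mki67, the proliferation antigen, read 0.75, 0.62 and 1.2 against 1.10, 0.31 and 0.52. Ccnd1, which encodes cyclin D1, was on the other side at -0.34 with the groups apart. Interferon-stimulated genes counted 30 of 38 lower with a median of -0.08, and within slides 0.21, -0.14 and -0.28. Without knockout replicate 3 the median of the interferon list was -0.0073. Irf7, a transcription factor of interferon induction, read 2.0, 1.40 and 1.21 in the knockout against 1.68, 2.45 and 1.83. Autophagy and lysosome genes counted 28 of 34 lower with a median of -0.08, led by the autophagy receptor gene Sqstm1 at -0.33 (interval -0.73 to 0.07). Cholesterol synthesis genes counted 20 of 26 lower, median -0.09, with Acat2 at -0.22 and Srebf2 at -0.25, and a median of 0.013 without wild-type replicate 3.

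Inflammatory genes lay close together as well. The cytokine and NF-kB feedback list had 0 of 29 called, with 13 higher and 16 lower and a median of -0.01. Il1b read 3.03, 2.90 and 3.69 in the knockout and 2.84, 3.50 and 2.19 in wild type, a spread within each genotype wider than the difference of 0.36. Tnf differed by -0.17 (interval -0.47 to 0.12) and Il6 by -0.01 (interval -0.38 to 0.36). Csf1, the macrophage growth factor gene, differed by -0.25, and Cxcl14 among the 20 chemokine genes by 0.63 (interval 0.01 to 1.25). Alternative activation and MHC class II presentation had medians of -0.05 and -0.08 with 0 called. Oxidative phosphorylation had 24 of 49 higher and a median of 0.00. Of its genes 3 lay apart on the higher side, among them Cox4i1 at 0.25, and 1 on the lower, Uqcrc1 at -0.24. Over all genes 2.74% and 1.65% lay apart on those sides. Fatty acid oxidation had 13 of 26 higher and a median of 0.00. In that list Acaa2, the thiolase of the mitochondrial pathway, read 2.18, 2.18 and 2.27 against 2.0, 2.0 and 2.10, and Acacb, an acetyl-CoA carboxylase described as a PHD3 substrate, differed by 0.24 (interval -0.14 to 0.63). The ATF4 amino acid response had 10 higher and 23 lower of 33, the unfolded protein response 16 and 7 of 23, NRF2 targets 14 and 12 of 26, and immediate early genes 11 and 9 of 20, with medians of -0.03, 0.03, 0.02 and 0.00. The immediate early gene Fos stood apart at 0.29, and the described PHD3 partners and substrates had a median of -0.03 over 10 genes.

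Genes beside the targeted locus were read as a group. Among 40 measured neighbours, the nearest 20 on each side of Egln3 in the reference order, 0 were called, 21 were higher and 19 lower, and the median was 0.04. The nearest measured gene on one side was Sptssa, which differed by -0.01, and next to it Eapp differed by -0.06, Snx6 by 0.12 and Nfkbia, the NF-kB inhibitor gene, by 0.08. Dock4 had the smallest p of the neighbours, at 0.35 (interval 0.02 to 0.67, unadjusted p = 0.0385, limma) with overlapping groups, and Nova1 stood apart at 0.28. The nearest measured gene on the side of Dock4 and Nova1 was Akap6, which was not well above background in any of the 6 samples.

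The cells carried the markers of their label, with all 31 measured genes of that list well above background in all 6 samples. The summed linear level of the list relative to the 75th percentile was 1396 to 1634 in the knockout and 1665 to 1688 in wild type, so all 3 knockout samples lay below the wild-type samples. The list counted 8 higher and 23 lower with a median of -0.07, and Lyz2 was its only member past 2-fold. Csf1r, the receptor of the growth factor in the culture, read 7.35, 7.47 and 7.11 against 7.42, 7.45 and 7.22, and Adgre1, the F4/80 antigen, differed by -0.04 (interval -0.26 to 0.19). Cebpa, a myeloid transcription factor gene, differed by -0.30. The summed levels of each marker list of other cells overlapped between the groups. Neutrophil markers summed to 140.0 to 153 in the knockout and 148 to 163 in wild type, with S100a8 at 2.25, 1.57 and 1.22 against 1.82, 1.17 and 1.90, and the granule protein gene Ngp not well above background in any knockout sample and in 2 of 3 wild-type samples. The neutrophil list includes Lyz1, which is also on the macrophage list. Lyz1 read 6.28, 6.16 and 5.86 against 6.34, 6.38 and 6.31 on the log2 scale, a large part of the neutrophil sum. That sum is therefore not a measure of neutrophils alone. Osteoclast markers summed to 53.6 to 74.9 and 47.5 to 55.2. Of these 13 markers 5 were higher and 8 lower, with a median of -0.095. Acp5 differed by 0.43 with overlapping groups and Atp6v0d2 by -0.32 with the groups apart. Most of the osteoclast sum was Acp5, at 5.54, 5.92 and 5.25 against 5.20, 4.93 and 5.31 on the log2 scale. Dendritic cell markers summed to 199 to 228 and 216 to 230.0. Lymphocyte markers summed to 5.72 to 6.77 and 5.68 to 6.40. Erythroid and megakaryocyte markers summed to 17.8 to 34.5 and 18 to 35.2, stromal and endothelial markers to 30.0 to 41.2 and 34.4 to 40.1, mast cell, basophil and eosinophil markers to 2.98 to 4.2 and 2.72 to 4.67, and progenitor markers to 6.78 to 8.58 and 5.50 to 9.73. Their part in the differences above was not tested.

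The difference between genotypes was also compared across conditions. No gene passed the adjusted threshold for the genotype difference at oxygen 1 minus that at oxygen 20 (0% of 20812, limma), with 229 (1.1%) at an unadjusted p under 0.05. None passed for oxygen 1 minus starved (0%), with 260 (1.25%). Within oxygen 20 alone, 0 genes were called with control feeding and 0 when starved, with 290 (1.39%) and 394 (1.89%) at an unadjusted p under 0.05. The groups lay apart for 5.02% of genes with control feeding at oxygen 20 and for 5.21% when starved. In all 3 conditions they lay apart in the same direction for 5 genes higher and 6 lower in the knockout, out of 20812 tested. Of these, 3 and 3 had a symbol. Samples with one number may come from one mouse, so the conditions may not be independent. How many genes would do so where none differs was not worked out. Those with a symbol were 3830403N18Rik, Gm16430 and Gm20736 on the higher side and Lyz2, Hhipl1 and Prom1 on the lower. Prom1, a membrane glycoprotein known as a stem cell marker, read -5.76, -5.67 and -5.92 against -5.37, -5.38 and -4.79 at oxygen 1, a difference of -0.60 (-0.21 with normexp), and differed by -0.83 with control feeding and -0.85 when starved.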

How the data were processed

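RNA, 200 ng per array, was labelled and hybridised to single-colour Agilent mouse arrays, per the labels' protocols. Spot intensity was extracted and background-subtracted with Agilent Feature Extraction 10.7.3.1 from a design on mm9, per the file headers, and was not normalized between arrays. A second table by the authors gives log2 values, and the submitters' processing notes name limma. No gene-level steps beyond these are given in the sources used here.

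Processed intensity was taken to log2 minus the 75th percentile of each array, flagged spots were left out, and 2 arrays of one sample were averaged. A probe was tested if well above background in at least 3 of 18 samples with at least 2 values in every group, and the brightest probe stood for each gene. Of 39429 probes, 26055 (66.1%) were named through RefSeq accessions. Of 20812 genes, 14007 had a symbol. The arrays held 43020 spots each, 56.1% to 65.4% of them well above background, and the 75th percentile of the 7 arrays at oxygen 1 lay between 933.8 and 1216. The number of samples limits the precision.

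A model of 6 group means over all 18 samples was fitted with limma 3.58.1 in R 4.3.3, with 12 residual and 2.48 prior degrees of freedom and Benjamini-Hochberg adjustment over all genes at 0.05. Two-sided moderated tests and 95% intervals come from this fit. The steps were tested on simulated data. The design text names 3 mice per group, and the p-values measure the spread between these samples. At oxygen 1, same-numbered samples of the 2 genotypes shared a slide. Their deviations from the group means correlated at -0.00405, 0.085 and 0.115, so the numbers were not taken to pair them.

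Named genes were the HIF pathway genes, Lyz1 and Lyz2, up to 10 per direction by size with an unadjusted p under 0.01, groups apart, all samples of 1 group well above background and a gene symbol that is not a predicted or clone name, and the members of each list with the smallest p. That condition on the name, set for called genes, was kept for these. Others, such as the canonical HIF targets, the sex-linked genes, Prom1, Osbp2, Glyctk, Sfrp4, Trim12a, NM_146065 and BC019489, were chosen after their values were seen. The members and lists were chosen with earlier results of these data known. Alternatives covered the block, slide, normalization, background, filter, probe choice, arrays of one sample and left-out samples. Upstream sequences came from the RefSeq table (GRCm38.p6), and no coordinates of that build were used for array probes.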

Additional observations from a re-analysis of the deposited data

How the results depend on the processing

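The count of genes past the threshold at oxygen 1 was 0 under every alternative run that kept all 6 samples. Over the fits that left out 1 of the 6 samples it ran from 0 to 1. Epo was called without knockout replicate 3 and Sfrp4 without wild-type replicate 3. In both fits none of the knockout readings of the called gene was well above background. The called gene then met the filter on dim probes through wild-type samples alone. Both interaction counts were 0 under every alternative run for them. With the replicate number as a block, which at oxygen 1 is also the slide, 0 genes were called over the 6 samples (636 at an unadjusted p under 0.05, against 352 without the block) and 0 over 18 samples with a block in each condition. The block changed no call.

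The share of genes whose interval lay within 2-fold was 88.4%. It was 97.7% with normexp, 87.1% with the authors' value table, 73.9% without a filter on dim probes, 97.6% for genes well above background in all 18 samples, and 89.1% with all probes singly. It was 87.1% with the shared-slide array of knockout replicate 1 alone, 87.7% with a trended and robust variance and 90.4% without the 3 samples of the other conditions that stood apart. Leaving out 1 sample at oxygen 1 gave 84.9% to 87.4%.

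Of 660 alternative list medians, 635 moved by less than the spread between slides. Those that moved more were alternative activation at -0.0059 and p53 targets at -0.0146 with the other array of knockout replicate 1, PHD3 partners at 0.0218 with quantile normalization, hypoxia response at -0.0290 with all probes, osteoclast markers at -0.00979 with normexp, and stromal markers at -0.00527 with the authors' table and -0.0999 with the other array. Leaving out 1 sample gave -0.0613 to 0.0166 for alternative activation, -0.0519 to 0.0333 for PHD3 partners, -0.125 to -0.00404 for glycolysis and -0.0488 to 0.0272 for hypoxia response. It gave -0.0230 to 0.0407 for immediate early genes, -0.140 to 0.0802 for mast cell, basophil and eosinophil markers, -0.174 to -0.0283 for osteoclast markers, -0.0500 to -0.0284 for p53 targets and -0.116 to -0.00388 for stromal markers.

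The difference of Lyz2 stayed between -1.17 and -0.85 over 20 alternatives and that of Hhipl1 between -1.27 and -0.61. That of Epo ran from -3.44 to -0.45 over 19, since no Epo value was tested when all 18 samples had to be well above background. The cause of these changes was not tested. The planned normexp correction named the mean spot signal. The files used here list the median, which was used instead, a change made after seeing the data.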
